A study of Mus musculus with 24 samples.

Results

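The genes described here are 45 genes of mitosis and the kinetochore, followed through glial progenitor cells (GPCs) made from mouse embryonic stem cells. They were chosen by name for their roles in cell division, with earlier results of these data known. The value of a gene is that of its probe with the highest mean signal over the arrays. These Illumina bead arrays held 18312 genes, with each of 1719 probes without a symbol counted as a gene. Of the 45 genes, 39 had a probe (57 probes in all). Ccnb1, Aurkb, Cenpf, Racgap1, Mki67 and Smc4 had none under their symbols and have no value here. Of the 39, 24 were detected on all 19 arrays and 8 on some of them. The probes of Ccnb2, Bub1, Cenpe, Nuf2, Kif20a, Ect2 and Cks2 were detected on no array, so they say nothing about the level of those genes.

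The flox/delta cells carried 1 conditional (flox) and 1 deleted allele of Dgcr8, which encodes a part of the complex that cuts microRNA precursors, and in the knockout (delta/delta) cells both were deleted. The groups were undifferentiated flox/delta cells in medium with the growth factors EGF and FGF (3 arrays), flox/delta cells differentiated without these factors and with B27 and 1% serum (3), and undifferentiated Dgcr8 knockout cells, which the labels also call mock (3). Knockout cells were in addition given a mock treatment (4 arrays), let-7 (3) or miR-125 (3). Knockout cells had received tamoxifen, 1 µM for 16 h and 100 nM for 16 h, which the labels do not list for flox/delta arrays, so the deletion and the drug cannot be told apart. No line, clone or driver of the recombinase is named in the sources used here. The arrays came from hybridization 1 (the 9 arrays of the 3 groups named before these), 2 (2 arrays) and 3 (8 arrays), whose mean raw signals were 298 to 474, 1429 to 1523 and 756 to 868. Levels are therefore compared only among arrays normalized together, as log2 signal. Dgcr8 itself read 7.31, 7.50 and 7.28 in flox/delta and 6.82, 7.04 and 6.67 in knockout arrays and fell by 0.52 on the log2 scale (limma adjusted p = 0.00498); whether its probe lies in the deleted part was not tested. Of 8 progenitor markers, 7, Nes, Sox2 and Olig2 among them, were detected on every array of each group. Gfap, the astrocyte filament gene, was detected on the 3 differentiated arrays and no other.

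Mitosis begins when the kinase CDK1, bound to a cyclin, phosphorylates many proteins, and the kinases PLK1 and Aurora A build the spindle. Kinetochores, assembled on CENP-A chromatin, attach chromosomes to microtubules, and the spindle checkpoint holds back the anaphase-promoting complex until attachment is complete. Many of these genes are transcribed late in the cell cycle through promoter elements called CHR and CCAAT, which bind the LIN54 subunit of MuvB complexes and the factor NF-Y. EGF and FGF are used to keep glial progenitors dividing in culture.

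Promoter sequence was at hand for 36 of the 45 genes (RefSeq, build GRCm38.p6, 250 bases before to 50 after each gene start). A CHR, searched as TTTGAA or in the variant form TTCGAA, each on both strands, lay in the promoters of 27 of these 36 genes (75%) and in 5854 of 27025 genes overall (21.7%). Within 60 bases of the start the counts were 24 of 36 (66.7%) and 1836 of 27025 (6.79%). CCAAT, on both strands, lay in 28 of 36 (77.8%) against 41.1% of all genes, and both elements in 25 of 36 (69.4%) against 8.61%. TTCGAA reads the same on both strands. A match is a description of letters and shows no binding.

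These promoters show how the elements lie in 5 genes that the results turn on, and in Ncaph, which changed in the same comparisons and has neither. Capitals mark the CHR and CCAAT matches on either strand. Cdk1 lies at chr10:69352863-69353162, minus strand, Cdc20 at chr4:118437294-118437593, minus strand, Plk1 at chr7:122159185-122159484, plus strand, Kif23 at chr9:61946750-61947049, minus strand, Top2a at chr11:99024140-99024439, minus strand and Ncaph at chr2:127133905-127134204, minus strand. All are written 5′ to 3′ on the gene's strand.
Cdk1: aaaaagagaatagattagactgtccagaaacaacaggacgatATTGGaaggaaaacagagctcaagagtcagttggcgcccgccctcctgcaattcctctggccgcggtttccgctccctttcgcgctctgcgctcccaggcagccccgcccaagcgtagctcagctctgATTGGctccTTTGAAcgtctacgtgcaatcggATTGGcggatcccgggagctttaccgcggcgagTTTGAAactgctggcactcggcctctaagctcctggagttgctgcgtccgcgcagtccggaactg
Cdc20: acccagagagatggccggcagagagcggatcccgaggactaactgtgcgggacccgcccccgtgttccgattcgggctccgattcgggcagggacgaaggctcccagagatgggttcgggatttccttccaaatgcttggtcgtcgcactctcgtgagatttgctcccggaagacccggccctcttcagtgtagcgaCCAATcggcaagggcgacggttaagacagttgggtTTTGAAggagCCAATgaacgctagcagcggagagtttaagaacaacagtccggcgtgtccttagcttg
Plk1: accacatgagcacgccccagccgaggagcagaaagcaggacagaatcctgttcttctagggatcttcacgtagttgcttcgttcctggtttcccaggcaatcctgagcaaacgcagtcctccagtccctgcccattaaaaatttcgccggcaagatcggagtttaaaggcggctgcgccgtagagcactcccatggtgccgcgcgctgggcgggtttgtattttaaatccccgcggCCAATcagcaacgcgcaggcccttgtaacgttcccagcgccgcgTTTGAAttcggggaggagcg
Kif23: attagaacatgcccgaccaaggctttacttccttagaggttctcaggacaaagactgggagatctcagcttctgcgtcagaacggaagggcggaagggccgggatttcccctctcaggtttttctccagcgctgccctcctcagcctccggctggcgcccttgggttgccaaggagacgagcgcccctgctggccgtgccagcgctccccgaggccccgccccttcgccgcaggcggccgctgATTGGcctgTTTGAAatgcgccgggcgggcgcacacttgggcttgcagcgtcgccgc
Top2a: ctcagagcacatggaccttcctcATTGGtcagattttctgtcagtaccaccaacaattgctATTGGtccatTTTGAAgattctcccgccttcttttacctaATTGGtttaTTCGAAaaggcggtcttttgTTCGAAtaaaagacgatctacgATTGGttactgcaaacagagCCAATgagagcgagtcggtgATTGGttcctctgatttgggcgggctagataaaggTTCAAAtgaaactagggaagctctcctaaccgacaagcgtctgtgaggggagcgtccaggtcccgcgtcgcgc
Ncaph: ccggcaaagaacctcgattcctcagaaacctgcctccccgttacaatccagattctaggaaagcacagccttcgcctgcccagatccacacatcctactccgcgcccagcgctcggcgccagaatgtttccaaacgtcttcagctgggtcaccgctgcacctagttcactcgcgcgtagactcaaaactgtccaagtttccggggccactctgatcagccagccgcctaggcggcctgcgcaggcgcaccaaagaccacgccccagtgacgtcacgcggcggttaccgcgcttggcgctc
With the start at 0, the CHR begins at -15 in Cdk1 (another lies at -71), at -18 in Cdc20, at 2 in Kif23 and at 30 in Plk1. Top2a has 4 CHR matches, the nearest at -23, and 6 CCAAT matches.

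**Figure D1:**
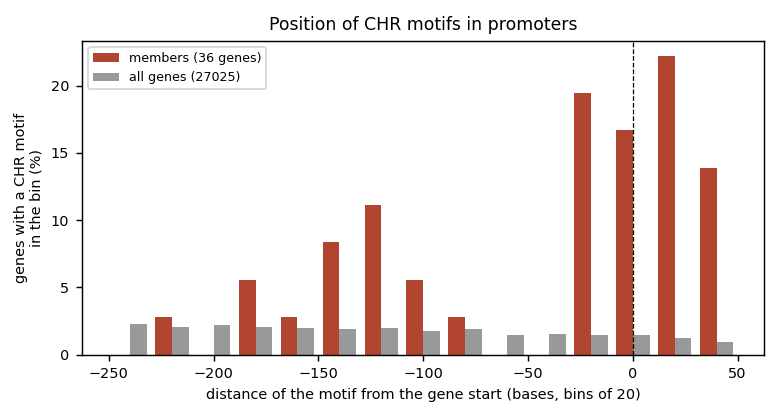
Share of genes (%, vertical axis) with a CHR match beginning in each 20-base bin of distance from the gene start (horizontal axis), for the 36 mitosis and kinetochore genes with promoter sequence (red) and for all 27025 genes (grey). The members' bars are tallest in the 4 bins from -30 to 50, at 13.9% to 22.2%, where all genes are at 0.947% to 1.47%.

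Differentiation was followed in flox/delta cells, before and after EGF and FGF were taken away. Of the 30 members that could be tested, 26 were detected in both groups, and all 26 fell. The 26 that were detected in both groups had a median difference of -4.07 on the log2 scale, or 16.8-fold lower, with a range of -5.03 to -1.70. Of all genes tested, 27.3% of 9382 were lower (2557 genes) and 28% were higher, and the median of all genes was -0.01. For each of these 26 members the groups of 3 arrays did not overlap, which held downwards for 30.7% of all genes. The other 4 members (Tpx2, Pttg1, Ube2c and Ccna2) were below detection on all differentiated arrays and entered the test through the undifferentiated ones. That filter favours a fall, so they are not counted above, and their folds are lower bounds. Over the 30 tested members, those with a higher undifferentiated signal fell further (Pearson correlation -0.88, Spearman -0.76, the 4 at their fitted values). The size of a fall, and any ranking by it below, therefore cannot be told apart from the starting signal of the probe. In these bulk samples, fewer dividing cells and less RNA per cell cannot be told apart. Astrocyte and oligodendrocyte markers moved with this fall: of 11 on the array, 11 were detected on at least 1 differentiated and 9 on at least 1 undifferentiated array, Gfap and Mog being the others, and their summed signal was 51742 to 56270 against 18696 to 19941. Their part in the result was not tested.

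Of the CDK1 engine, Cdk1, the kinase itself, had log2 signals of 11.05, 11.32 and 11.13 in undifferentiated and 6.42, 6.35 and 6.50 in differentiated cells. It fell by 4.75 ± 0.11 (SE, n = 3 against 3, limma adjusted p = 5.37e-09). The lowest undifferentiated array lay more than 4 log2 units above the highest differentiated one. Ccna2, the cyclin of S phase and early mitosis, gave 5.31, 5.33 and 5.35 against 4.30, 4.24 and 4.35, the latter below detection, and was at least 1.58-fold lower.

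Of the genes of anaphase and mitotic exit, Cdca3 and Cdc20 fell by similar amounts, and Ube2c and Pttg1 have only a bound. Cdca3, an F-box-like trigger of mitotic entry that is degraded in G1, went from 11.43, 11.19 and 11.16 to 6.60, 6.24 and 6.51 (-4.81 ± 0.13, adjusted p = 1.06e-08). Cdc20, the activator of the anaphase-promoting complex, fell by 4.67 ± 0.10. Ube2c, the ubiquitin-conjugating enzyme of that complex, gave 5.38, 5.57 and 5.18 against 4.33, 4.23 and 4.47, with all differentiated arrays below detection and a fold of at least 1.63. Pttg1, the securin that guards cohesion, was at least 2.29-fold lower. In Cdca3 and Cdc20 the differentiated arrays lay below all undifferentiated ones.

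Among the mitotic kinases, Pbk, a kinase of dividing cells, had the largest fall of all members, from 11.28, 11.27 and 11.23 to 6.04, 6.29 and 6.35 (-5.03 ± 0.11, adjusted p = 4.39e-09). It ranked 16 among all genes by the size of its difference. Aurka, the kinase of the centrosome and spindle poles, fell least of the kinases tested, from 10.15, 10.03 and 9.98 to 5.996, 5.83 and 6.05 (-4.09 ± 0.10). Plk1 lay between them at -4.42 ± 0.13. All 3 kinases thus differed by at least 4 log2 units with no overlap.

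The chromosomal passenger complex corrects wrong attachments. Its borealin subunit gene, Cdca8, went from 9.52, 9.40 and 9.19 to 5.34, 4.97 and 5.26 (-4.18 ± 0.13), and its scaffold gene, Incenp, from 9.66, 9.60 and 9.62 to 6.06, 6.12 and 6.21 (-3.49 ± 0.09). Birc5, which encodes survivin, fell by 3.73 ± 0.11, and its other probes showed -4.99 and -4.58. The checkpoint genes stood close to each other. Bub1b, the BubR1 pseudokinase, went from 8.97, 8.75 and 8.999 to 5.10, 4.93 and 5.09 (-3.87 ± 0.11), and Mad2l1, the MAD2 protein that holds CDC20, from 10.18, 10.36 and 10.26 to 6.43, 6.66 and 6.60 (-3.70 ± 0.10). Adjusted p was between 1.02e-08 and 2.23e-08 for Cdca8, Incenp, Bub1b and Mad2l1.

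At the centromere, Cenpa, the histone variant that marks it, went from 12.47, 12.39 and 12.38 to 7.82, 7.65 and 7.73 (-4.68 ± 0.09, adjusted p = 3.79e-09). Spc24, a subunit of the NDC80 complex that grips microtubules, fell least of the members seen in both groups, from 7.56, 7.60 and 7.47 to 5.83, 5.76 and 5.94 (-1.70 ± 0.10, adjusted p = 7.05e-07). Its other probe showed -2.75. The subunit genes Spc25 and Ndc80 stood at -3.998 ± 0.16 and -3.66 ± 0.15, so members of 1 complex differed more on their main probes than their SE.

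Of the spindle motors and microtubule proteins, Kif2c, a kinesin that takes microtubules apart, went from 9.86, 9.60 and 9.78 to 5.35, 5.30 and 5.41 (-4.39 ± 0.10). Tpx2, the activator of Aurora A on the spindle, went from 7.59, 7.82 and 7.93 to 4.37, 4.43 and 4.45 and was at least 8.65-fold lower. The motors Kif11, Kif22 and Kif4 and the bundling protein gene Nusap1 lay between -4.37 and -3.68. In the midzone, Prc1, which cross-links antiparallel microtubules, went from 12.18, 11.998 and 12.08 to 7.91, 7.99 and 8.14 (-4.07 ± 0.10). Kif23, the kinesin of the centralspindlin complex, went from 8.84, 8.71 and 8.85 to 4.70, 4.49 and 5.04 (-4.06 ± 0.14), with 1 differentiated array below detection. In both midzone genes the groups did not overlap.

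Among the chromosome condensation genes, Top2a, the topoisomerase that untangles chromosomes, went from 11.49, 11.45 and 11.46 to 7.004, 6.67 and 6.88 (-4.62 ± 0.11). Ncapd2, a subunit of condensin I, fell least there, from 11.06, 10.79 and 10.86 to 7.73, 7.58 and 7.62 (-3.26 ± 0.11). Foxm1, the transcription factor that drives many of these genes, went from 8.94, 8.89 and 8.70 to 5.26, 5.36 and 5.54 (-3.46 ± 0.11). Adjusted p for Kif2c, Prc1, Kif23 and these 3 lay between 6.34e-09 and 3.69e-08.

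**Figure D2:**
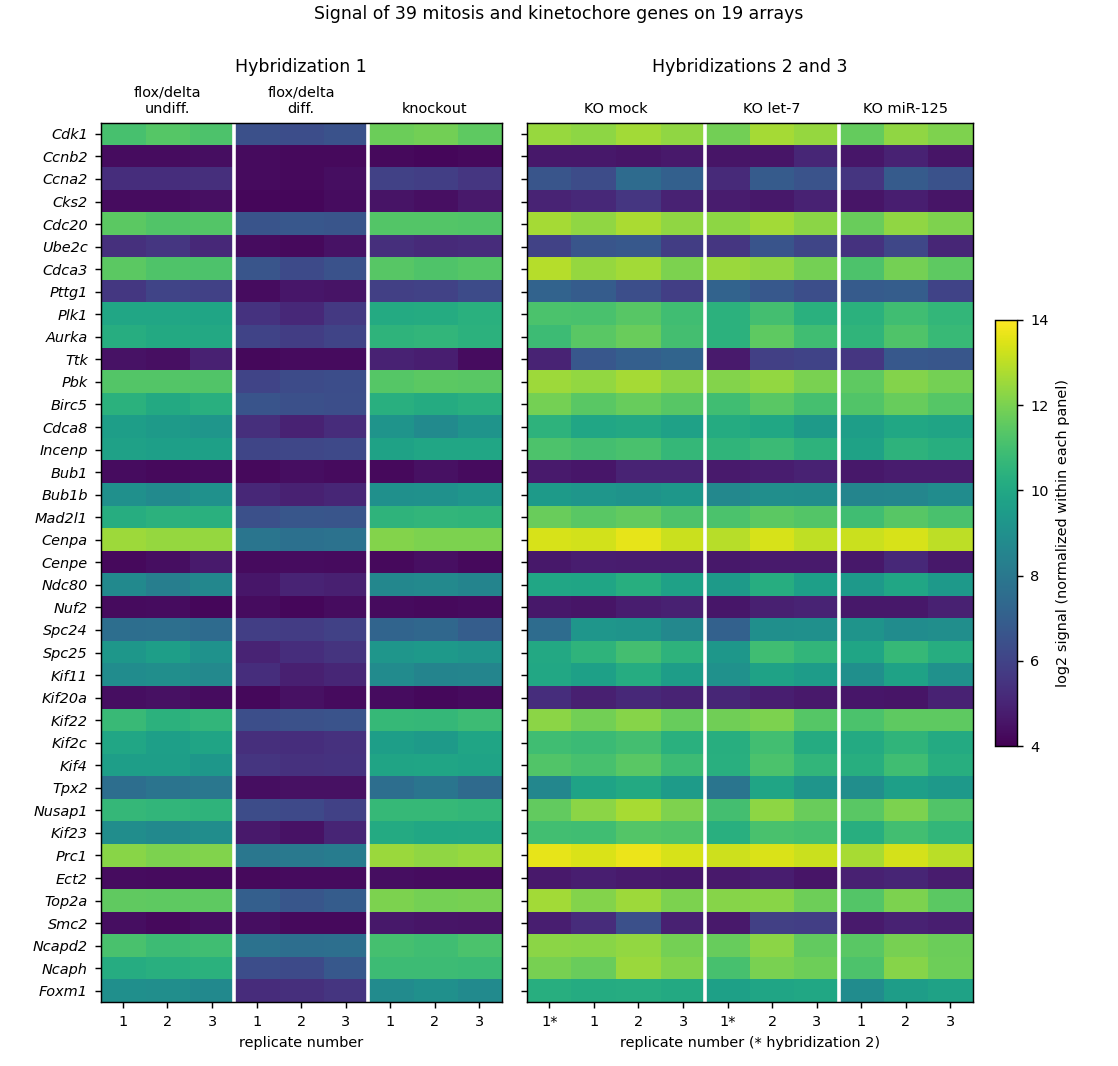
Log2 signal (colour) of the 39 members with a probe (rows, ordered by role) on each array (columns, by replicate number), normalized separately for hybridization 1 (left) and hybridizations 2 and 3 (right), so colours are not compared between panels. The differentiated flox/delta columns are dark in every row that is bright in the undifferentiated and knockout columns; the 7 undetected members are dark throughout.

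In the same comparison 15 further probes of 10 member genes were all lower (-4.99 to -0.71), and 6 of them lay more than 1 log2 unit from the main probe. Of the 24 tested members with promoter sequence, 19 had a CHR and 5 had none, and all of them fell. Ube2c and Pttg1, which have only a bound, are among the 24.

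Other genes of the same processes were counted beside the members. Of 51 further mitotic genes tested 49 fell, none rose, and the median was -2.41. Of all genes, 27.3% were lower and 28% higher. In these lists, genes below detection on all differentiated arrays were not set aside. The counts and the median may thus include falls that the filter favours. Cdca2, a phosphatase partner, had the largest difference (-4.59 ± 0.14), followed by Arhgef39 (-4.37 ± 0.12), Sgo1, the guardian of centromere cohesion (-4.19 ± 0.09), and Gtse1 (-4.09 ± 0.11). The anaphase-promoting complex itself moved less and in both directions: 7 of 13 genes fell and 2 rose, namely Anapc2 (0.87 ± 0.10) and Anapc16 (0.84 ± 0.11), against -1.76 ± 0.10 for Anapc15. Of 11 genes of the MuvB, E2F and NF-Y regulators 9 fell, led by Mybl2, the B-MYB factor (-2.76 ± 0.14), and Rbl1, the p107 pocket protein (-2.39 ± 0.15). E2f5 rose (0.39 ± 0.14).

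Dgcr8 loss was compared with flox/delta in undifferentiated cells, and here members moved in both directions. Of 31 tested, 9 rose, 3 fell and 19 passed in neither direction, with a median of 0.10. That is 9 of 31 against 28.3% of 9107 genes higher, and 3 of 31 against 26.5% lower, so the share of members higher was close to that of all genes. Groups without overlap were common too: 12 of 31 members upwards against 32.3% of all genes, and 3 downwards against 29.9%. Astrocyte and oligodendrocyte markers were lower in the knockout beside this (summed signal 8175 to 8684 against 19359 to 20735, with 4 of 11 detected on a knockout array and 9 on a flox/delta array), and markers of fibroblasts and mural cells were at 426 to 446 against 270 to 280, with 1 of 8 detected in each: Dcn in the knockout (8.17 against 4.31 in flox/delta) and Thy1 in flox/delta (7.04 against 4.43 in the knockout). The part of either list was not tested. With a background correction by normexp and median scaling the counts were 1 higher (Kif23) and 0 lower, and 1643 genes were called in all in place of 4989.

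Kif23 rose most, from 8.93, 8.79 and 8.95 in flox/delta to 10.16, 10.003 and 10.02 in knockout arrays. The difference was 1.17 ± 0.09, a 2.25-fold rise (limma adjusted p = 1.10e-05), and the 3 knockout arrays all lay above the 3 flox/delta ones. Ncaph, the kleisin subunit of condensin I, went from 10.25, 10.33 and 10.41 to 10.91, 10.89 and 10.85 (0.55 ± 0.09, adjusted p = 7.06e-04). Top2a, next to it in role, went from 11.60, 11.56 and 11.57 to 12.06, 11.94 and 11.98 (0.42 ± 0.09, adjusted p = 0.00299), again without overlap.

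Of the 5 genes of the CDK1 engine only 2, Cdk1 and Ccna2, could be tested, and both rose by less than 1 log2 unit. Cdk1 read 11.15, 11.43 and 11.24 in flox/delta and 11.79, 11.91 and 11.59 in knockout arrays (0.48 ± 0.12, adjusted p = 0.00698), and its other kept probe differed by 0.19. Ccna2 read 5.29, 5.31 and 5.33 and 5.91, 5.84 and 5.57 (0.47 ± 0.11, adjusted p = 0.00558). Aurka read 10.26, 10.13 and 10.08 and 10.55, 10.63 and 10.47 (0.39 ± 0.09, adjusted p = 0.0067). In each of the 3 genes the knockout arrays lay above all flox/delta arrays. Smaller rises were those of Kif4 (0.34, and 0.47 and 0.42 on its other probes), Prc1 (0.30) and Plk1 (0.29). Each of these 3 lost its call when a single array was left out, flox/delta or knockout replicate 3 among them. Replicates are numbered here as in the non-normalized table; the deposited normalized tables number replicates 1 and 3 of these 2 groups the other way round.

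The 3 members called lower in the knockout were 2 of 4 tested centromere and kinetochore genes and 1 of 3 of the passenger complex. The others of these roles did not pass: Ndc80 (0.06), Spc25 (-0.06), Incenp (0.18) and Birc5 (-0.004). Spc24 read 7.62, 7.66 and 7.52 in flox/delta and 7.22, 7.38 and 6.94 in knockout arrays (-0.42 ± 0.12, adjusted p = 0.0161, and -0.74 on its other probe). Cenpa read 12.57, 12.48 and 12.48 and 12.19, 12.08 and 12.08 (-0.39 ± 0.09, adjusted p = 0.00469). Cdca8 read 9.63, 9.51 and 9.28 and 9.22, 8.83 and 9.21 (-0.39 ± 0.14, adjusted p = 0.0372), and this call was lost without flox/delta replicate 1 or 2 or knockout replicate 2. The groups did not overlap in any of the 3 genes, though in Cdca8 the gap was narrow.

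**Figure D3:**
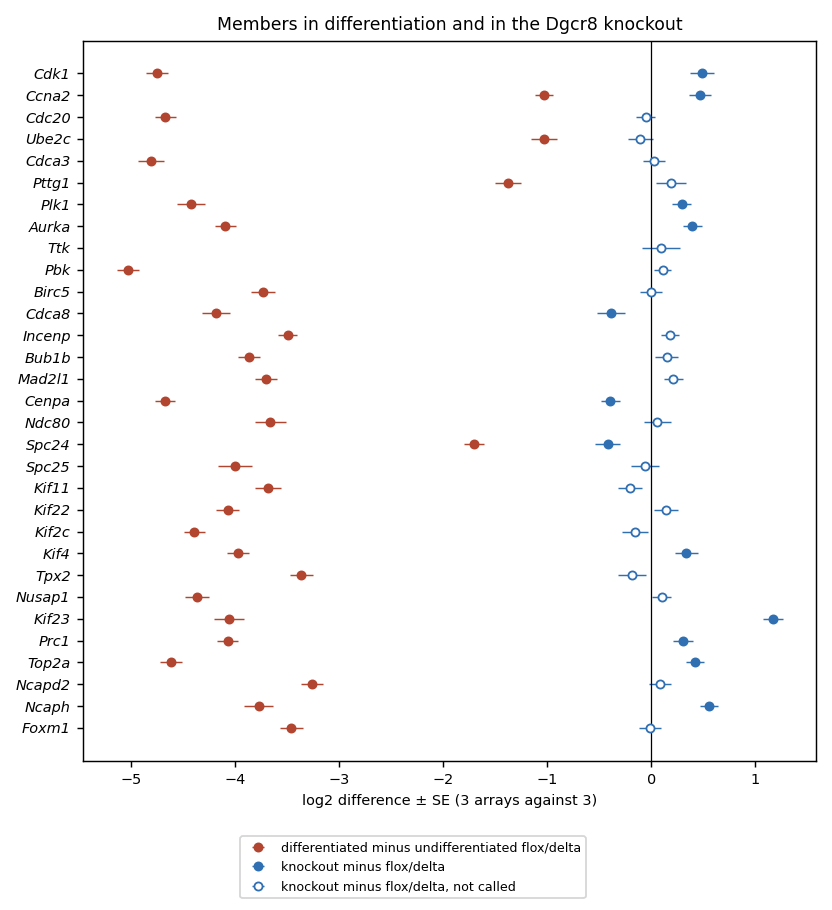
Log2 difference ± SE (horizontal axis, 3 arrays against 3) of each tested member (rows, by role) on differentiation (red) and in the knockout (blue); filled points passed an adjusted p of 0.05 and open points did not. The red points of the 26 members detected in both groups lie from -5.03 to -1.70, and those of Tpx2, Pttg1, Ube2c and Ccna2 are drawn as fitted although they are bounds, while the 31 blue points lie between -0.42 and 1.17 on either side of 0.

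Among the further mitotic genes 17 of 52 rose and 8 fell, beside 28.3% of all genes higher and 26.5% lower. Cdc25a, a CDK-activating phosphatase, rose by 1.24 ± 0.10, while Cenpm, a kinetochore protein gene, (-1.45 ± 0.09), Cdc25c (-0.82 ± 0.10) and Cenpq (-0.72 ± 0.11) fell. The others called lower were Aspm, Ckap2l, Ncaph2, Pmf1 and Psrc1 (-0.62 to -0.32). Of 14 genes of the anaphase-promoting complex 3 rose and 4 fell, near those shares of all genes, and of 11 regulators 6 rose, with E2f5 at 1.27 ± 0.10, and Nfyb fell by 0.28 ± 0.10.

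Differentiated flox/delta cells were also set against the undifferentiated knockout cells, a comparison that crosses genotype and state. All 26 members detected in both groups were lower again, with a median of -4.29, against 36.5% of 9460 genes lower. Another 4 of the 30 tested were below detection on all differentiated arrays, so they have only a bound. The largest differences were those of Kif23 (-5.30 ± 0.14) and Cdk1 (-5.26 ± 0.11) and, among the 26, the smallest was that of Spc24 (-1.32). The same 3 differentiated arrays serve both comparisons, so these values are not independent of those above.

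The let-7 and miR-125 arrays asked whether these microRNAs, given to knockout cells, change the same genes. let-7 and miR-125 act through the seed, bases 2 to 8, given in capitals for mature forms of RefSeq (GRCm38.p6); the labels do not say which form was given, so the sequences show the families only. mmu-let-7a-5p is read from chr13:48538239-48538260, minus strand, and mmu-let-7b-5p from chr15:85707325-85707346, plus strand. mmu-miR-125a-5p is read from chr17:17830817-17830840 and mmu-miR-125b-5p from chr9:41581940-41581961, both plus strand.
mmu-let-7a-5p: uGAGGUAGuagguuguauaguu
mmu-let-7b-5p: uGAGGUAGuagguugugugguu
mmu-miR-125a-5p: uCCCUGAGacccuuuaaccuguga
mmu-miR-125b-5p: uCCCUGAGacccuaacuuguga
The let-7 forms printed here share the seed GAGGUAG and the miR-125 forms CCCUGAG. RefSeq's mmu-let-7j has another, GAGGUAU. Per the labels, replicate numbers mark separate tamoxifen treatments, so each number pairs a treated array with a mock array.

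With let-7 no member passed the limma test at adjusted p 0.05, and 7 of 32 reached an unadjusted p below 0.05, all of them lower, against 8.8% of 9419 genes lower and 9.51% higher. That count of 7 was 2 without mock or let-7 replicate 1, 3 without mock replicate 2, 4 without let-7 replicate 3, 13 without let-7 replicate 2 and 15 without mock replicate 3. It was 18 with the replicate block. The shares of all genes at that p were counted only in the first fit, so these other counts have none beside them. In all, 3 genes passed, all higher (0.0319%), and 0% lower. With the replicate block, which uses the pairing, 0 members and 6 genes (0.0637%, all higher) passed. The differences lay mostly on 1 side: 30 of 32 members were below 0, against 51.9% of all genes, and the member median was -0.31. Of 32 members 25 (78.1%) were lower in all 3 replicate pairs, against 25.8% of genes. Members read on the same arrays are not independent of each other. Counts of members here and below are therefore no replicates of a treatment, which had 3 pairs. The pair medians were -0.54, -0.22 and -0.19, and without let-7 replicate 1, the array of hybridization 2, the median was -0.22. It was -0.20 without mock replicate 2 and -0.20 without let-7 replicate 3. The smooth muscle and fibroblast markers on these arrays varied too, with a summed signal of 603 to 2496 on let-7 and 1313 to 4119 on mock arrays, 4 of 8 being detected in each group. Over hybridizations 2 and 3 normalized together, Acta2 averaged 9.15 with let-7 and 10.58 with mock. Dcn went the other way, at 8.52 and 8.13. The part of these markers was not tested.

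Ttk, the checkpoint kinase that starts spindle signalling, had the largest let-7 difference, -0.89 ± 0.21, with pairs of -0.30, -1.14 and -1.24 (limma adjusted p = 0.147), but it was detected on only 2 arrays of each group. Ccna2 was -0.88 ± 0.24, with pairs of -1.50, -0.62 and -0.54 (adjusted p = 0.163). Bub1b read 9.64, 9.32 and 9.47 on mock and 8.85, 9.11 and 9.08 on let-7 arrays (-0.46 ± 0.14, adjusted p = 0.195). Foxm1 read 10.44, 10.38 and 10.26 and 9.87, 10.06 and 10.14 (-0.33 ± 0.13, adjusted p = 0.255). Only in Bub1b and Foxm1 were the let-7 arrays all below the mock arrays, 2 of 32 members, against 6.72% of genes. Pttg1 was the member above 0 by the largest difference (0.30 ± 0.20).

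With miR-125 no gene passed in limma either (0% of genes in both directions), and 14 of 31 members reached an unadjusted p below 0.05, all lower, against 10.3% of 9308 genes lower and 9.52% higher. Single arrays moved that count of 14. It was 4 without mock replicate 2, 5 without miR-125 replicate 1, 6 without miR-125 replicate 3 and 23 without miR-125 replicate 2. With the block of replicate numbers it was 25. The shares of all genes at that p were not counted in these other fits. With the replicate block 0 members and 3 genes (0.0322%, all higher) passed. The lowest adjusted p of a member there was 0.0506. Of 31 members 30 were below 0, against 52.3% of genes, with a median of -0.53, and 28 (90.3%) were lower in all 3 pairs, against 29.4% of genes. The pair medians were -0.74, -0.44 and -0.33. In the fit of all 10 arrays with the hybridization as a term 1 member was lower, Bub1b, among 362 genes called. That fit takes the mock arrays numbered replicate 1 in hybridizations 2 and 3 as separate. The summed signal of the smooth muscle and fibroblast list was 3496 to 6561 on miR-125 and 901 to 3025 on mock arrays (3 of 8 detected in miR-125, 5 in mock). Acta2 differed by 1.51 without passing. Over hybridizations 2 and 3 normalized together, Acta2 averaged 12.33 with miR-125 and 10.58 with mock. Dcn went the other way, at 7.85 and 8.13, and the other listed markers were dim in both groups. The sum thus follows Acta2 and not the list as a whole. The part of these markers was not tested.

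Cdca3 had the largest miR-125 difference, with 12.16, 12.38 and 11.77 on mock and 10.90, 11.61 and 11.21 on miR-125 arrays (-0.86 ± 0.23, limma adjusted p = 0.125). This SE and adjusted p, and those of the genes below, leave out the pairing. Nusap1 followed with 11.99, 12.44 and 11.80 and 11.13, 11.74 and 10.97 (-0.80 ± 0.25, adjusted p = 0.155). Incenp read 10.68, 10.82 and 10.32 and 9.42, 10.13 and 9.90 (-0.79 ± 0.22, adjusted p = 0.131). In each of these 3 the miR-125 arrays were all below the mock arrays. The same held for Bub1b, Cdc20, Foxm1, Kif22, Pbk and Prc1, 9 of 31 members in all, against 13.8% of genes.

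**Figure D4:**
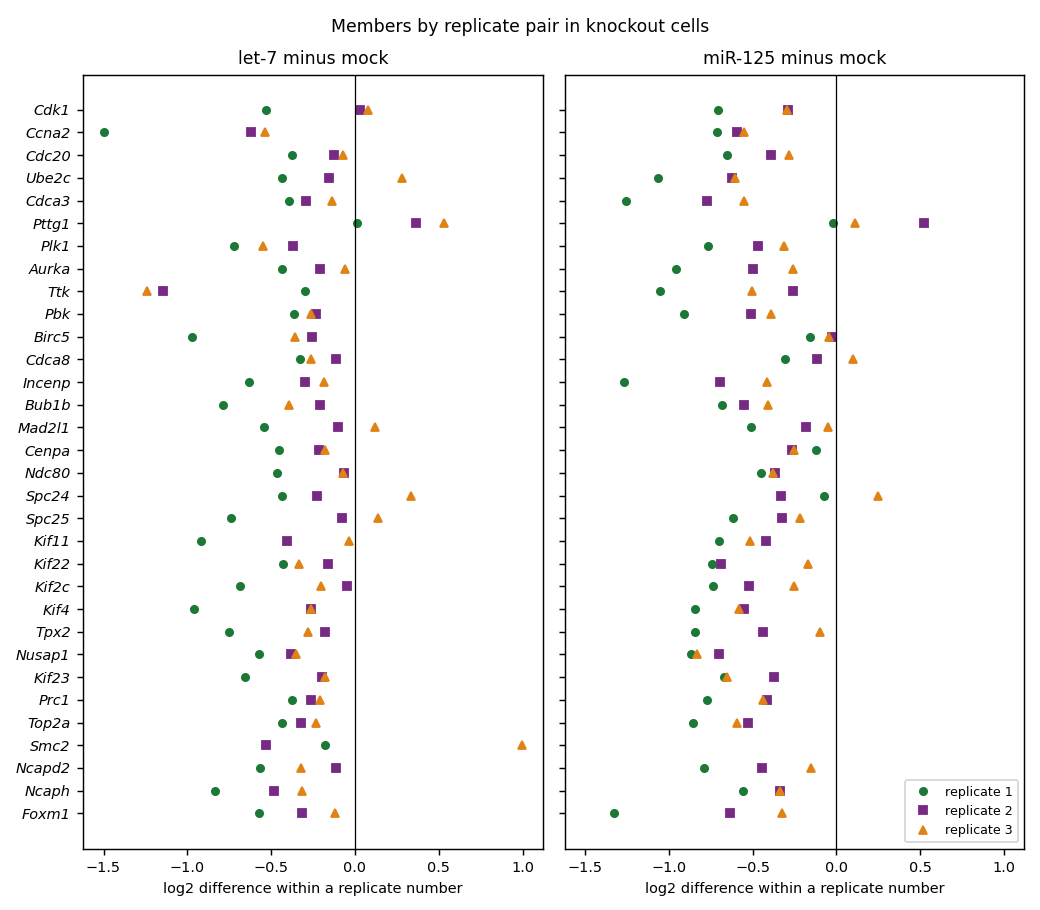
Log2 difference of a treated array from the mock array of the same replicate number (horizontal axis), for let-7 (left) and miR-125 (right) in knockout cells, for each tested member (rows, by role). Most points lie left of 0: 25 of 32 members had all 3 let-7 pairs below 0 and 28 of 31 all 3 miR-125 pairs, and replicate 1 (circles) lies farthest to the left in most rows.

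Both comparisons use mock replicates 2 and 3, and by their number their mock arrays of replicate 1 share a tamoxifen treatment. Their values are therefore not independent of each other. Of 53 further mitotic genes, 51 were below 0 with let-7 (median -0.35), against 51.9% of all genes. With miR-125 it was 51 of 53 (median -0.41), against 52.3%. Birc5, chosen after its values were seen, had let-7 pairs of -0.97, -0.25 and -0.36 and miR-125 pairs of -0.16, -0.02 and -0.04. On its 3 probes the let-7 differences were -0.55, -0.53 and -0.50 and the miR-125 differences -0.06, -0.08 and -0.04, and none of them passed. The direct difference of let-7 from miR-125 was -0.34 ± 0.20 for Birc5 (adjusted p = 0.415).

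The direct comparison of let-7 with miR-125 over the 10 arrays called no member, while 70 of 9923 genes were lower (0.705%) and 49 higher (0.494%). Mock replicate 1 of hybridization 2 and mock replicate 1 of hybridization 3 entered this fit as separate arrays. By their number they stem from the same tamoxifen treatment. The member median was 0.25, and 7 of 32 members were below 0, against 49.5% of genes. The median was 0.04 without let-7 replicate 2, 0.14 without miR-125 replicate 1 and 0.46 without miR-125 replicate 2. Cdca3 stood at 0.55 ± 0.23 (limma adjusted p = 0.249). Smc2, a condensin ATPase gene, was not above background on any miR-125 array and was detected on 2 let-7 arrays. With the replicate block no member passed, while 2.64% of genes were lower and 3.21% higher, 581 in all.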

How the data were processed

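The authors deposited a table, not normalized per the file headers, of signal intensity with a detection p-value beside it, for 25697 probes on 19 arrays. Symbols were given for 23978 probes, through the platform annotation. The other 1719 probes each stood as a gene in the counts of all genes, where they passed the filter. The authors also deposited normalized values, as intensity for the hybridization 1 comparisons and as log2 signal for the others, as far as the values show; they served as an alternative. The 24 sample entries stand for 19 arrays, since 5 were entered again. Per the submitters' processing notes limma was used.

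For each comparison the raw signals of its own arrays went through neqc, which corrects background, quantile normalizes and takes log2 ( limma 3.58.1, R 4.3.3, offset 16). Probes with detection p under 0.05 on 3 or more arrays were kept, and the brightest raw probe stood for its gene. Linear models with empirical Bayes moderation (two-sided) were adjusted by Benjamini-Hochberg over all genes, with a threshold of 0.05 for a call. A hybridization term entered the let-7 comparison, whose mock arrays were replicate 1 of hybridization 2 and replicates 2 and 3 of hybridization 3, and the let-7 against miR-125 comparison. Folds of undetected groups are lower bounds against the dimmest detected signal. The test was tried on simulated data. Precision is limited by the number of arrays, and p-values cover the spread among arrays that may be technical replicates, since a separate origin is stated only for the mock, let-7 and miR-125 replicates.

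Same-numbered arrays were paired by the labels in the let-7 and miR-125 comparisons (correlations of their deviations 0.64 to 0.87 and 0.39 to 0.58). In hybridization 1 they share only a number. The SE and adjusted p given for single genes in the let-7 and miR-125 comparisons are of the fits without the replicate block. Promoters and microRNAs came from RefSeq. The members and lists were chosen with earlier results of these data known. All members may be named; arrays are given for the largest and smallest difference of each role on differentiation, for up to 6 called members each way elsewhere, and for up to 4 called genes outside the list, with genes called against the majority. The let-7 and miR-125 members given by array or pair, Birc5 included, were chosen after their values were seen.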

Additional observations from a re-analysis of the deposited data

How the results depend on the processing

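On differentiation 30 members fell in every alternative that kept all arrays, of 30 tested, except that 39 were tested without the detection filter and 31 in the fit of 9 arrays. The counts of 30 include the 4 members below detection on all differentiated arrays. With 1 array left out 26 to 30 fell, all that were tested, with a median of -4.08 to -3.93 (medians here are of all members tested, those with only a bound at their fitted values). Smaller values came from other background handling: the median was -2.89 without background correction, -2.90 on the deposited values, -3.30 with offset 50 and -3.17 with normexp and median scaling. In that last setting the genes called were 2878 in place of 5180 on differentiation, 1643 in place of 4989 in the knockout (members 1 higher and 0 lower) and 3737 in place of 6689 for differentiated cells against the knockout. In the knockout, leaving out 1 array gave 6 to 9 members higher and 2 to 3 lower. The replicate block changed no member's call in any comparison. With it 6 genes passed for let-7, 3 for miR-125 and 581 for let-7 against miR-125.

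No member passed for let-7 or for let-7 against miR-125 in any setting, while the genes called moved. For let-7 (3 genes) they were 154 with normexp and median scaling, 250 without background correction and on the deposited values, 5 with offset 50, 13 in the fit of 10 arrays, and 0 without the detection filter, without the hybridization term, in hybridization 3 alone and with each array left out. For miR-125 (0 genes) they were 57, 187 without background correction, 181 on the deposited values, and 362 in the fit of 10 arrays, which called 1 member. For let-7 against miR-125 (119 genes) they were 238 with normexp and median scaling, 369 without background correction, 189 with offset 50, 17 without the filter, 0 in hybridization 3 alone, and 0 to 76 with 1 array left out. The cause was not tested. The let-7 member median was -0.46 to -0.20 with 1 array left out. In hybridization 1 the labels do not pair the numbers, and the deposited tables disagree on numbers 1 and 3 of the undifferentiated groups. As numbered in the non-normalized table, same-numbered arrays correlated at -0.08 to 0.19 on differentiation and 0.08 to 0.24 in the knockout, and the block there left 30 members lower on differentiation. Dim probes near background limit what the array can show for Ccna2, Ube2c, Pttg1, Ttk and Smc2.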
